A study of Mus musculus with 18 samples.

Results

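The permeability pore genes are 10 transcripts whose products form or regulate the route for metabolites and ions across the 2 mitochondrial membranes. They are the channel genes Vdac1, Vdac2 and Vdac3, the adenine nucleotide translocator genes Slc25a4 and Slc25a5, the phosphate carrier gene Slc25a3, the cyclophilin gene Ppif, the outer membrane protein gene Tspo and the hexokinase genes Hk1 and Hk2. The members were named by their symbols, and each was read from the brightest probe set that was annotated to that symbol alone. All 10 were measured, out of 19938 symbols. RNA came from immortalized mouse embryonic fibroblast (MEF) cells of ICR background, all drawn from 1 stock of the line. Every culture had been infected with adenovirus, which carried scrambled RNA (SCR) or a single short hairpin RNA, which targeted HSF1 (HSF1-KD) or SSBP1 (SSBP1-KD). Contact with the virus lasted 2 h and was followed by 70 h in normal medium. Cells then stayed at 37 °C (Cont) or spent 1 h at 42 °C (HS), which gave 6 groups of 3 arrays. HSF1 is the master transcription factor of the heat shock response, and SSBP1 binds single-stranded DNA in mitochondria. The study tied the release of SSBP1 from mitochondria to the complex of ANT and VDAC1, and the question here was how the transcripts of that complex and its partners stood in the 6 groups.

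Voltage-dependent anion channels (VDACs) are barrel-shaped pores through which ATP, ADP, phosphate and respiratory substrates cross the outer membrane. In the inner membrane the adenine nucleotide translocators (ANTs) exchange matrix ATP for cytosolic ADP, and the phosphate carrier brings in the phosphate for ATP synthesis. Under calcium overload or oxidative stress the inner membrane can open a large non-selective pore, the permeability transition, which cyclophilin D, the product of Ppif, sensitizes from the matrix. Hexokinases, which phosphorylate glucose in the entry step of glycolysis, can dock on VDAC.

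Values are log2 signals of Affymetrix Mouse Gene ST arrays after RMA. A signal is comparable between arrays for the same probe set, and not between probe sets, because each set has its own probe affinity. Array medians lay between 7.88 and 7.94, and arrays of the same group correlated with r of 0.985 or more, lowest in SSBP1-KD Cont, where replicate 1 had a mean absolute deviation from the group means of 0.152 against 0.070 to 0.110 on the other 17 arrays. In the heat check, Hspa1a, the inducible HSP70 gene, went from 8.53 to 12.85 in SCR, from 8.58 to 9.14 in HSF1-KD and from 8.71 to 12.13 in SSBP1-KD. Ssbp1 lay 0.22 lower in SSBP1-KD than in SCR in Cont (adjusted p = 0.0555) and 0.41 lower in HS (adjusted p = 0.00155). A dimmer Ssbp1 probe set gave -0.07 and -0.03 (adjusted p = 0.513 and 0.826). Hsf1 had no probe set of its own symbol and was not analysed here. Of 9 fibroblast markers, 8 lay above the median of all symbols, 8.21, with Thy1 below it, and so did 0 of 4 epithelial, 0 of 4 endothelial, 1 of 4 blood (Cd68) and 1 of 4 skeletal muscle markers (Acta1). All differences below are from 1 limma fit over the 18 arrays, as log2 differences with standard errors (SE), and a gene is called at a Benjamini-Hochberg adjusted p under 0.05 over all probe sets. The labels do not say whether the 3 arrays of a group are independent cultures. The p-values therefore measure only how far these samples scatter, and part of that scatter may be technical. In RNA from whole cultures, fewer cells that express a gene and less RNA per cell cannot be told apart.

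Because the study concerns the target sites of HSF1, the promoters of the members were searched for the heat shock element, the repeat of inverted GAA units that HSF1 binds. RefSeq windows of build GRCm38.p6, from 250 bases before to 50 after a transcript start, were at hand for 7 of the 10 members, 9 windows in all; Vdac2, Vdac3 and Tspo had none. Searched on both strands, the 2-unit element (GAANNTTC, or in the other order TTCNNGAA) was in 0 of the 9 windows and in 15.1% of all 32851 windows. The 3-unit element, which adds NN and a further inverted unit and so holds the shorter one, was in 0 of the 9 and in 0.603% of all. No match says only that these letters are not in these windows. Of all windows, 37.4% held a CCAAT box (CCAAT), 35.7% a GC box (GGGCGG) and 19.6% the core of the hypoxia response element (ACGTG). Hk2 and Vdac1 are printed as the member with the widest range over the groups and the member named in the study's question, beside Hspe1, a heat-induced chaperonin gene with a 3-unit element. Capitals mark matches to the 2-unit element, the CCAAT box, the GC box or the hypoxia core on either strand, and all other bases are in lower case.
The Vdac1 sequence is 1 of its 2 windows, the one that starts further upstream.
Hk2, chr6:82774405-82774704, minus strand: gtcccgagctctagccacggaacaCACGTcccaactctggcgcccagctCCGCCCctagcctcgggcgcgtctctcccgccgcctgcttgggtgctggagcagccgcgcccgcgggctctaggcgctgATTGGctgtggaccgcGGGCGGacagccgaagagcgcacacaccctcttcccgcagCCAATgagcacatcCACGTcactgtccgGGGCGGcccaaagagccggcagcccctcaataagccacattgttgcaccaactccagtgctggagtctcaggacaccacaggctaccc
Vdac1, chr11:52360601-52360900, plus strand: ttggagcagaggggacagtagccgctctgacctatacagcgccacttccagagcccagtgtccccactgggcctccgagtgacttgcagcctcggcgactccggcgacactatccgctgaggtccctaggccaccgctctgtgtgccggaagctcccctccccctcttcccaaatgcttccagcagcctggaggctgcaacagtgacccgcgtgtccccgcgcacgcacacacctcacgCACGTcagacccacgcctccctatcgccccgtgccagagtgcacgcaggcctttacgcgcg
Hspe1, chr1:55087898-55088197, plus strand: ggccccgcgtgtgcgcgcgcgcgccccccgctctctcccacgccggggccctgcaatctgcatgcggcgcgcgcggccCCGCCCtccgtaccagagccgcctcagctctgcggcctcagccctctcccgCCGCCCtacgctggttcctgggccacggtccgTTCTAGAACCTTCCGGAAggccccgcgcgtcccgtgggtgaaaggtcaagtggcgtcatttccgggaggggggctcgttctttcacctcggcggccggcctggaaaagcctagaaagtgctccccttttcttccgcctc
The Hk2 window held 2 hypoxia cores, 2 CCAAT boxes and 3 GC boxes, the printed Vdac1 window 1 hypoxia core and none of the others, and the Hspe1 window 3 overlapping 2-unit elements and 2 GC boxes. The other Vdac1 window held 3 GC boxes. Hspe1 rose with heat by 0.67 in SCR (SE 0.07, adjusted p = 2.27e-05), where Hk2 fell and Vdac1 was not called. Hspa1a, which rose there by 4.31, held 0 matches to the 3-unit element and 1 to the 2-unit element in its window. Whether an element in these windows goes with the heat response was not tested.

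Heat shock called at most 1 of the 10 members in each kind of cell, a share that for so few genes is near that of all symbols. Larger shares were called in a fit of only the probe sets above the median signal, which hold all 10 members. There, 3506, 4462 and 1718 of 10985 symbols were called in SCR, HSF1-KD and SSBP1-KD. In scrambled RNA-treated cells Hk2 fell by 0.45 on the log2 scale (SE 0.09, adjusted p = 0.00200) and the other 9 members did not pass the test, so that 0 of 10 were called higher and 1 of 10 lower where 16.0% of all symbols were called (7.63% higher and 8.34% lower). The ranges of the 2 groups did not overlap for 4 of 10 members (Vdac3, Slc25a3, Ppif and Hk2), beside 34.4% of all symbols. The median member difference was 0.0032, beside -0.0065 over all symbols. In HSF1 knockdown cells 1 of 10 members was called, Hk1, higher by 0.20, where 21.4% of all symbols were called (10.6% higher and 10.8% lower), and that value belongs to a probe set whose identity is in doubt, as described with Hk1. The ranges of 3 members (Vdac2, Hk2 and the brighter Hk1 set) did not overlap, beside 37.5% of all symbols. None of the 10 was called in SSBP1 knockdown cells by limma, where 6.90% of all symbols were called (4.08% higher and 2.82% lower), and the ranges of 2 members (Tspo and the brighter Hk1 set) did not overlap, beside 24.2%. There, 1 member, Tspo, had an unadjusted p under 0.05, at a difference of 0.15 (adjusted p = 0.177), and the t-test of the study's methods with Benjamini-Hochberg adjustment also called 0. The median absolute heat difference of the members was 0.051 in SCR against 0.081 over all symbols, 0.046 against 0.097 in HSF1-KD and 0.035 against 0.077 in SSBP1-KD.

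**Figure D1:**
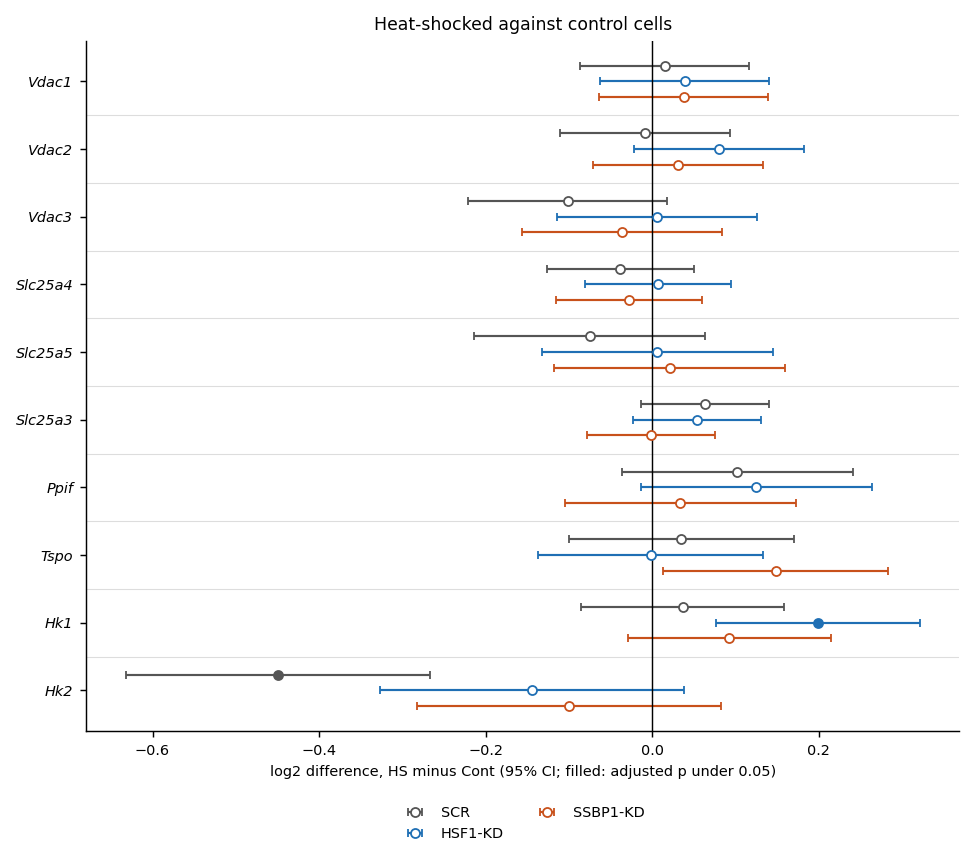
Log2 difference of each member between heat-shocked and control cells (x axis, HS minus Cont) in the 3 kinds of cell, with bars for the 95% confidence interval and filled points for an adjusted p under 0.05. Hk2 in SCR lies at -0.45 and Hk1 in HSF1-KD at 0.20, and all other points are open.

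The members called in 1 or more comparisons of a knockdown with SCR were Vdac1, Ppif, Tspo, Hk2, the ANT genes and the brighter Hk1 set. Of the counts below, 3 or 4 of 10 is for so few genes near the share of all symbols. The 5 of 10 in HSF1-KD HS is above its share of all symbols, and the excess was not tested. In a fit of the probe sets above the median signal alone, which hold all 10 members, larger shares of symbols were called. They were 4419 and 5922 of 10985 for HSF1-KD and SSBP1-KD in Cont, and 4925 and 5772 in HS. The Slc25a4 calls depended on single arrays. So did the calls of Ppif in HSF1-KD, of Tspo and Slc25a5 in HSF1-KD HS, and of Hk2 in SSBP1-KD Cont. In control cells, HSF1 knockdown left Vdac1 lower by 0.26 and Ppif higher by 0.23, with 3 of 10 members called, 1 higher and 2 lower, where 21.0% of all symbols were called (10.9% higher and 10.1% lower), the other lower member being the brighter Hk1 set (-0.28). SSBP1 knockdown in control cells left Slc25a5 higher by 0.28, Hk2 higher by 0.26, Slc25a4 higher by 0.12 and Tspo lower by 0.46, which made 4 of 10 where 31.1% of all symbols were called (14.6% higher and 16.5% lower). In heat-shocked cells HSF1 knockdown gave 5 of 10, with Hk2 (0.56), Ppif (0.26) and Slc25a5 (0.21) higher and Vdac1 (-0.24) and Tspo (-0.21) lower, beside 23.7% of all symbols (13.1% higher and 10.7% lower). SSBP1 knockdown in heat-shocked cells gave 4 of 10, with Hk2 (0.61), Slc25a5 (0.37) and Slc25a4 (0.13) higher and Tspo (-0.34) lower, beside 28.7% of all symbols (14.3% higher and 14.4% lower). The ranges of knockdown and SCR arrays did not overlap for 7 of 10 members in HSF1-KD Cont (39.7% of all symbols), 8 in SSBP1-KD Cont (44.2%), 6 in HSF1-KD HS (40.9%) and 6 in SSBP1-KD HS (45.3%). The median member difference was -0.056 and 0.094 for the HSF1 and SSBP1 knockdowns in Cont, beside 0.033 and 0.051 over all symbols, and -0.015 and 0.11 in HS, beside 0.031 and 0.025. Both knockdowns were set against the same SCR arrays. Of the 9 fibroblast markers, 6 were lower and 1 higher in each knockdown in Cont, and in HS 6 were lower with 1 higher in HSF1-KD and 2 higher in SSBP1-KD, where 10.1% to 16.5% of all symbols were called lower and 10.9% to 14.6% higher in these 4 comparisons. The mean of the list lay between 10.89 and 11.27 over the 6 groups, and its part in the member differences was not tested.

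**Figure D2:**
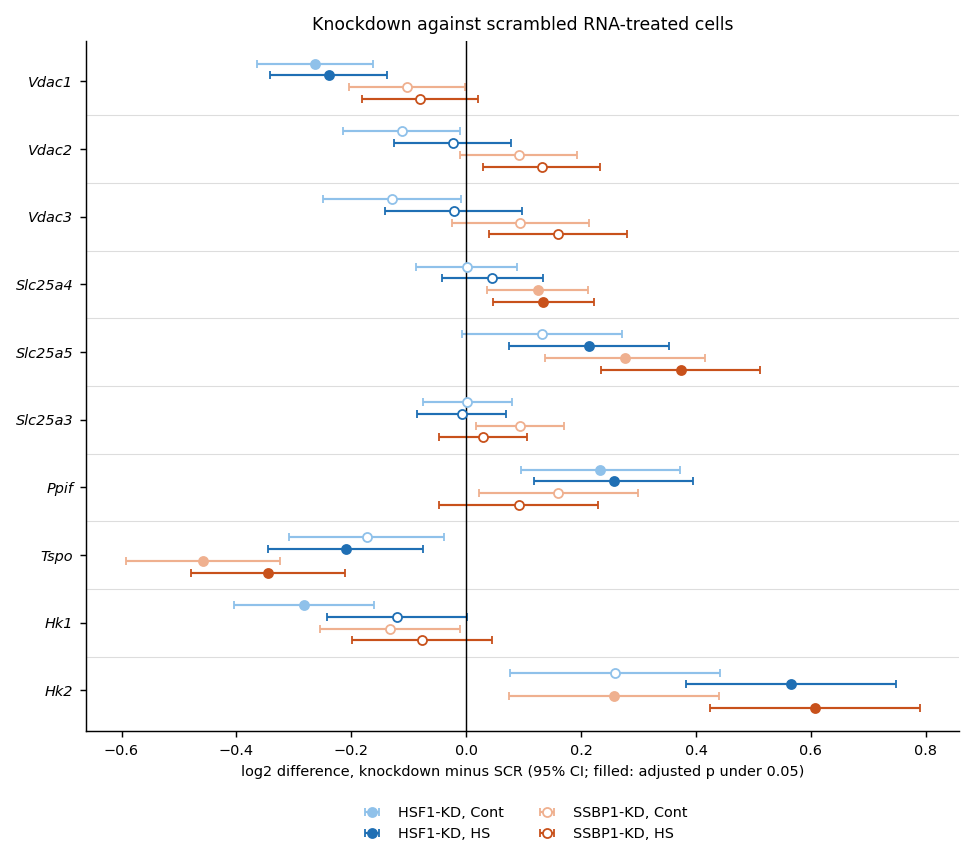
Log2 difference of each member between knockdown and scrambled RNA-treated cells (x axis), for HSF1-KD and SSBP1-KD in Cont and HS, with bars for the 95% confidence interval and filled points for an adjusted p under 0.05. Hk2 reaches 0.56 and 0.61 in HS, Tspo -0.46 and -0.34 in SSBP1-KD, and Vdac1 -0.26 and -0.24 in HSF1-KD.

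Set directly against each other in Cont, the knockdowns differed in 5 of 10 members, 4 higher in SSBP1-KD (Vdac1, Vdac2, Vdac3 and Slc25a4) and 1 lower (Tspo), where 29.4% of all symbols were called (12.9% higher and 16.6% lower) and 8 of 10 members had ranges that did not overlap, beside 39.0%. In HS the 3 VDAC genes were higher in SSBP1-KD and no member was lower, 3 of 10 beside 25.7% of all symbols (11.6% higher and 14.1% lower), and 5 of 10 had ranges that did not overlap, beside 41.2%. The heat response itself was not called different for any of the 10 members by limma, in HSF1-KD against SCR (0.346% of all symbols called, 0.0100% higher and 0.336% lower) or in SSBP1-KD against SCR (0.492%, 0.181% higher and 0.311% lower). In both, Hk2 was the 1 member with an unadjusted p under 0.05, and the methods' t-test also called 0.

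**Figure D3:**
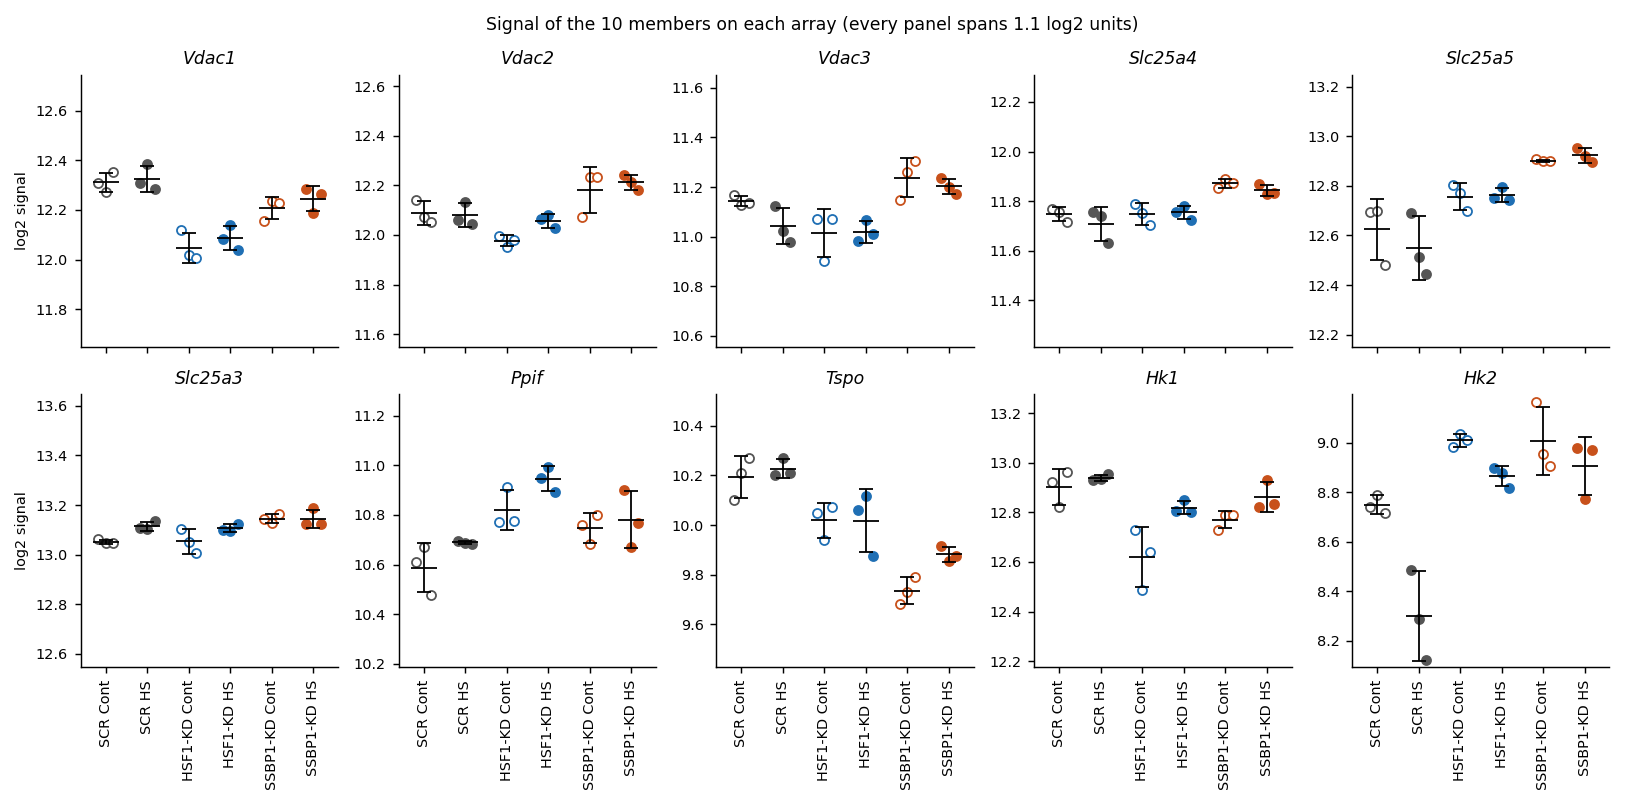
Log2 signal (y axis, 1.1 units in every panel) of the 10 members on the 3 arrays of each group (x axis), with open points for Cont, filled points for HS, and a bar for the mean and SD. Hk2 in SCR HS, at 8.12 to 8.49, lies below all other arrays, and Slc25a3 spans only 13.01 to 13.19.

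Vdac1, the most abundant VDAC isoform in most tissues, was lower after HSF1 knockdown. Its log2 signal was 12.31, 12.27 and 12.35 in SCR Cont and 12.31, 12.39 and 12.28 in SCR HS. HSF1-KD cells gave 12.12, 12.02 and 12.01 in Cont and 12.08, 12.14 and 12.04 in HS. In SSBP1-KD it read 12.16, 12.24 and 12.23 in Cont and 12.28, 12.19 and 12.26 in HS. All 6 HSF1-KD arrays lay below all 12 others, and the SSBP1-KD arrays lay between, touching the SCR range only in HS. The difference between HSF1-KD and SCR was -0.26 in Cont (SE 0.05, adjusted p = 0.00129) and -0.24 in HS (SE 0.05, adjusted p = 0.00223), and both were called under every alternative tried. SSBP1-KD exceeded HSF1-KD by 0.16 in Cont (adjusted p = 0.0231) and by 0.16 in HS (adjusted p = 0.0270), and both calls depended on single arrays. The Cont call was lost without HSF1-KD Cont replicate 2 (0.0786) or 3 (0.0902) or SSBP1-KD Cont replicate 2 (0.0771) or 3 (0.0671), and the HS call without replicate 1 or 3 of HSF1-KD HS (0.0738 and 0.104) or of SSBP1-KD HS (0.104 and 0.0833). Both calls were also lost with the compared arrays only (0.164 in Cont and 0.0850 in HS) and under the methods' t-test (0.119 and 0.0868). Heat moved Vdac1 by 0.02, 0.04 and 0.04 in SCR, HSF1-KD and SSBP1-KD, with 95% intervals from -0.09 to 0.14 in all.

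Vdac2, whose product binds the pro-apoptotic protein BAK, and Vdac3, the least understood isoform, were both higher in SSBP1-KD than in HSF1-KD. Vdac2 read 12.14, 12.07 and 12.05 in SCR Cont, 12.06, 12.13 and 12.05 in SCR HS, 12.00, 11.95 and 11.98 in HSF1-KD Cont and 12.06, 12.08 and 12.03 in HSF1-KD HS, with 12.07, 12.23 and 12.24 in SSBP1-KD Cont and 12.24, 12.21 and 12.18 in SSBP1-KD HS. For Vdac3 the values were 11.17, 11.13 and 11.14, then 11.12, 11.02 and 10.98 in SCR (Cont, then HS), 11.07, 10.90 and 11.07, then 10.98, 11.07 and 11.01 in HSF1-KD, and 11.15, 11.26 and 11.30, then 11.23, 11.20 and 11.17 in SSBP1-KD. For both genes every SSBP1-KD array lay above every HSF1-KD array of the same temperature, while SSBP1-KD Cont overlapped SCR Cont through its replicate 1. SSBP1-KD exceeded HSF1-KD in Cont by 0.20 for Vdac2 (SE 0.05, adjusted p = 0.00553) and 0.22 for Vdac3 (SE 0.06, adjusted p = 0.00867), and in HS by 0.15 and 0.18 (adjusted p = 0.0319 for both). Both Cont calls were lost with the compared arrays only (adjusted p = 0.115 and 0.13) and under the methods' t-test (0.12 and 0.17). The HS calls were lost without HSF1-KD HS replicate 1 (adjusted p = 0.0756 and 0.114), HSF1-KD HS replicate 3 (0.10 and 0.0813), SSBP1-KD HS replicate 1 (0.108 and 0.106) or SSBP1-KD HS replicate 2 (0.0793 and 0.0739), the Vdac2 call also without HSF1-KD HS replicate 2 (0.0575) and the Vdac3 call without SSBP1-KD HS replicate 3 (0.0524). The Vdac2 call in HS was also lost with the compared arrays only (0.0582), and the Vdac3 call with a replicate block (0.0505). Against SCR, neither gene was called in either knockdown, with SSBP1-KD HS nearest at 0.13 for Vdac2 (adjusted p = 0.0632) and 0.16 for Vdac3 (adjusted p = 0.0541). Alternatives brought both under the threshold, 5 of them for Vdac2 (0.0158 to 0.0466) and 8 for Vdac3 (0.0130 to 0.0490). Vdac2 had another probe set, which followed the used one with r = 0.87 over 18 arrays and gave 0.13 in the HS comparison of the knockdowns (adjusted p = 0.0626). For Vdac3, 2 further sets of Vdac3, identical to each other on 18 arrays, followed the used one with r = 0.99 and gave a difference of 0.17 in SSBP1-KD HS against SCR HS (adjusted p = 0.0467). RefSeq holds pseudogene copies of Vdac3 and Slc25a5, and near-identical copies cannot be told apart by such probes.

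The ANT genes were higher after SSBP1 knockdown, Slc25a5 by more than Slc25a4 on their own scales. Slc25a5 encodes ANT2, the isoform of proliferating cells, and read 12.69, 12.70 and 12.48 in SCR Cont, 12.69, 12.51 and 12.44 in SCR HS, 12.80, 12.77 and 12.70 in HSF1-KD Cont and 12.75, 12.79 and 12.74 in HSF1-KD HS. In SSBP1-KD the arrays gave 12.91, 12.90 and 12.90 in Cont and 12.95, 12.92 and 12.89 in HS. All 6 SSBP1-KD arrays therefore lay above the other 12, with HSF1-KD between and its Cont range meeting that of SCR at 12.70. SSBP1-KD exceeded SCR by 0.28 in Cont (SE 0.06, adjusted p = 0.00557) and by 0.37 in HS (SE 0.06, adjusted p = 0.000630). That Cont call was lost with the compared arrays only (adjusted p = 0.0605) and under the methods' t-test (0.0982), and the HS call under the t-test (0.0522). HSF1-KD exceeded SCR by 0.13 in Cont (adjusted p = 0.20) and by 0.21 in HS (adjusted p = 0.0330), and the latter was lost without any 1 of 5 arrays, most without SCR HS replicate 3 (0.16, adjusted p = 0.160), the others being SCR HS replicate 2 (0.114) and HSF1-KD HS replicates 1 (0.0739), 2 (0.108) and 3 (0.0632). That HSF1-KD call in HS was also lost with equal array medians (0.0660), with the compared arrays only (0.101) and under the methods' t-test (0.178). SSBP1-KD and HSF1-KD differed by 0.14 in Cont and 0.16 in HS without being called (adjusted p = 0.132 and 0.108). Of 2 further Slc25a5 probe sets (r = 0.98 with the used one for both), each gave SSBP1-KD higher than SCR, one by 0.25 in Cont and 0.39 in HS and the other by 0.28 in Cont and 0.38 in HS.

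Slc25a4, the ANT1 gene that dominates in heart and skeletal muscle, moved little. Its signal was 11.77, 11.76 and 11.72 in SCR Cont and 11.76, 11.74 and 11.63 in SCR HS, with 11.79, 11.75 and 11.70, then 11.76, 11.78 and 11.73 in HSF1-KD. SSBP1-KD gave 11.85, 11.89 and 11.87 in Cont and 11.87, 11.83 and 11.83 in HS, above all 12 other arrays. The difference from SCR was 0.12 in Cont (SE 0.04, adjusted p = 0.0391) and 0.13 in HS (SE 0.04, adjusted p = 0.0278). Leaving out any 1 of the 6 SCR Cont and SSBP1-KD Cont arrays took the Cont call away (adjusted p = 0.0504 without SSBP1-KD Cont replicate 1 up to 0.131 without SCR Cont replicate 3), and the HS call was lost without SSBP1-KD HS replicate 1 (0.0955), 2 (0.0524) or 3 (0.0588) or without replicate 3 of SCR HS (0.153). With the array medians set equal the Cont difference was 0.10 (adjusted p = 0.120). Both calls were lost with the compared arrays only (0.156 in Cont and 0.128 in HS), and the HS call under the methods' t-test (0.120). SSBP1-KD also exceeded HSF1-KD in Cont by 0.12 (adjusted p = 0.0412), and this was lost without HSF1-KD Cont replicate 2 or 3 or SSBP1-KD Cont replicate 2 or 3 (up to 0.152). Equal array medians (0.0572), the compared arrays only (0.223) and the methods' t-test (0.0786) took it away too.

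Slc25a3, the phosphate carrier gene, was the steadiest member. SCR arrays read 13.05 to 13.06 in Cont and 13.10 to 13.14 in HS, HSF1-KD arrays 13.01 to 13.10 and 13.10 to 13.13, and SSBP1-KD arrays 13.13 to 13.16 and 13.12 to 13.19. Its group means differed by at most 0.094, less than in all but 2.68% of symbols, and it was not called in any of the 11 comparisons. The nearest was SSBP1-KD against SCR in Cont, 0.094 (95% interval 0.02 to 0.17, adjusted p = 0.0750), which 4 alternatives brought under the threshold (adjusted p = 0.0147 to 0.0315).

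Ppif was highest in heat-shocked HSF1 knockdown cells. Its signal was 10.61, 10.67 and 10.48 in SCR Cont, 10.70, 10.69 and 10.68 in SCR HS, 10.77, 10.91 and 10.78 in HSF1-KD Cont and 10.95, 10.99 and 10.89 in HSF1-KD HS. SSBP1-KD cells read 10.76, 10.68 and 10.80 in Cont and 10.90, 10.67 and 10.77 in HS. HSF1-KD arrays lay above SCR arrays at both temperatures, and SSBP1-KD overlapped SCR in HS but not in Cont. HSF1-KD exceeded SCR by 0.26 in HS (SE 0.06, adjusted p = 0.0115) and by 0.23 in Cont (SE 0.06, adjusted p = 0.0219). The HS call was lost without HSF1-KD HS replicate 2 (0.0527), and the Cont call without SCR Cont replicate 3 (0.112) or HSF1-KD Cont replicate 2 (0.107), with equal array medians (0.0532), with the compared arrays only (0.0937) and under the methods' t-test (0.16). In SSBP1-KD the difference from SCR was 0.16 in Cont (adjusted p = 0.0892) and 0.09 in HS (adjusted p = 0.383), and heat moved Ppif by 0.10, 0.13 and 0.03 in the 3 kinds of cell (adjusted p = 0.366, 0.207 and 0.808).

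Tspo, which encodes the outer membrane translocator protein that binds cholesterol and benzodiazepines, was lowest in SSBP1 knockdown cells. SCR arrays read 10.10, 10.21 and 10.27 in Cont and 10.20, 10.27 and 10.21 in HS, and HSF1-KD arrays 10.05, 9.94 and 10.07 in Cont and 10.06, 10.12 and 9.88 in HS. The SSBP1-KD arrays gave 9.68, 9.73 and 9.79 in Cont and 9.92, 9.86 and 9.88 in HS. SSBP1-KD lay below SCR with a gap at both temperatures, and below HSF1-KD with a gap in Cont only. The difference of SSBP1-KD from SCR, -0.46 in Cont (SE 0.06, adjusted p = 8.91e-05) and -0.34 in HS (SE 0.06, adjusted p = 0.000930), was called under every alternative tried. In HSF1-KD it was -0.17 in Cont (adjusted p = 0.0790) and -0.21 in HS (adjusted p = 0.0308), and the HS call was lost without SCR HS replicate 1 (0.0529), 2 (0.113) or 3 (0.0663) or HSF1-KD HS replicate 3 (0.15). The HSF1-KD call in HS was also lost with the compared arrays only (0.107), a replicate block (0.0507) and the methods' t-test (0.186). SSBP1-KD was below HSF1-KD by 0.29 in Cont (log2 difference -0.29, SE 0.06, adjusted p = 0.00373), a call lost under the methods' t-test (0.0506). In HS that difference was -0.14 (adjusted p = 0.170), and no test of the difference between these 2 differences was run.

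Hk2, the inducible hexokinase of growing cells, had the widest range of all members. It read 8.74, 8.79 and 8.72 in SCR Cont, and 8.49, 8.29 and 8.12 in SCR HS. HSF1-KD gave 8.98, 9.03 and 9.01 in Cont and 8.90, 8.88 and 8.82 in HS, and SSBP1-KD gave 9.16, 8.95 and 8.90 in Cont and 8.98, 8.77 and 8.97 in HS. The 3 SCR HS arrays lay below all 15 others, and the knockdown arrays lay above SCR arrays of the same temperature with no overlap. The group means spanned 0.71, more than in 92.8% of symbols. Hk2 fell with heat by 0.45 on the log2 scale in SCR (95% interval -0.63 to -0.27), a call that was lost only under the methods' t-test (adjusted p = 0.0886). In the knockdown cells the heat difference was -0.14 in HSF1-KD (95% interval -0.33 to 0.04, adjusted p = 0.277) and -0.10 in SSBP1-KD (95% interval -0.28 to 0.08, adjusted p = 0.537). The difference in heat response from SCR was 0.31 for HSF1-KD (SE 0.12, adjusted p = 0.530) and 0.35 for SSBP1-KD (SE 0.12, adjusted p = 0.310). Neither passed the test, and with array weights the latter was 0.46 (adjusted p = 0.0390). In HS, Hk2 was 0.56 higher in HSF1-KD than in SCR (SE 0.09, adjusted p = 0.000257) and 0.61 higher in SSBP1-KD (SE 0.09, adjusted p = 0.000109), both lost only under the methods' t-test (0.0532 and 0.0528). In Cont the differences were 0.26 in each, with adjusted p = 0.0515 for HSF1-KD, under the threshold in 7 alternatives (down to 0.0224), and 0.0402 for SSBP1-KD. The SSBP1-KD call in Cont was lost without SSBP1-KD Cont replicate 1 (0.18, adjusted p = 0.170), the array that stood apart, without SSBP1-KD Cont replicate 2 (0.0524) and without SCR Cont replicate 1 (0.0917), 2 (0.0643) or 3 (0.114). It was also lost with equal array medians (0.0698), with the compared arrays only (0.0953) and under the methods' t-test (0.151).

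Hk1, the hexokinase of most tissues, was represented by 2 probe sets that ran against each other. The brighter one, which the rule selected, carries a single accession and no RefSeq transcript of Hk1. The same accession is on 18 probe sets, 16 of which are also annotated to Rpl17, a ribosomal protein gene. Over the 18 arrays the brighter set followed those 16 with r = 0.88 to 0.97 (median 0.95), and the other Hk1 set, which carries 4 RefSeq transcripts of Hk1, had r = -0.65 to -0.53 with them. Between the 2 Hk1 sets r was -0.58. The brighter set read 12.92, 12.82 and 12.96 in SCR Cont, 12.93, 12.94 and 12.95 in SCR HS, 12.73, 12.49 and 12.64 in HSF1-KD Cont, 12.80, 12.85 and 12.80 in HSF1-KD HS, 12.73, 12.79 and 12.79 in SSBP1-KD Cont and 12.82, 12.93 and 12.83 in SSBP1-KD HS. It was lowest in HSF1-KD Cont, at -0.28 from SCR (SE 0.06, adjusted p = 0.00293; 0.0693 with the compared arrays only and 0.14 under the methods' t-test). It was higher by 0.20 after heat in HSF1-KD (SE 0.06, adjusted p = 0.0226), a call lost without HSF1-KD Cont replicate 2 (0.111) or HSF1-KD HS replicate 1 (0.0514) or 2 (0.0812). The compared arrays only (0.118) and the methods' t-test (0.184) took this heat call away as well.

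The set with RefSeq transcripts read 10.26, 10.30 and 10.29 in SCR Cont, 10.17, 10.24 and 10.08 in SCR HS, 10.34, 10.42 and 10.43 in HSF1-KD Cont, 10.43, 10.37 and 10.24 in HSF1-KD HS, 10.18, 10.35 and 10.23 in SSBP1-KD Cont and 10.34, 10.28 and 10.33 in SSBP1-KD HS. On it, HSF1-KD lay above SCR at the same temperature without overlap. HSF1-KD exceeded SCR by 0.18 in HS (SE 0.06, adjusted p = 0.0379) and by 0.11 in Cont (adjusted p = 0.217), and its heat difference in HSF1-KD was -0.05 (adjusted p = 0.646). With this set the counts became 0 of 10 called for heat in HSF1-KD, 1 higher and 1 lower for HSF1-KD against SCR in Cont, and 4 higher and 2 lower in HS. Its Cont and HS ranges overlapped in both knockdowns and were apart in SCR, the reverse of the brighter set.

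**Figure D4:**
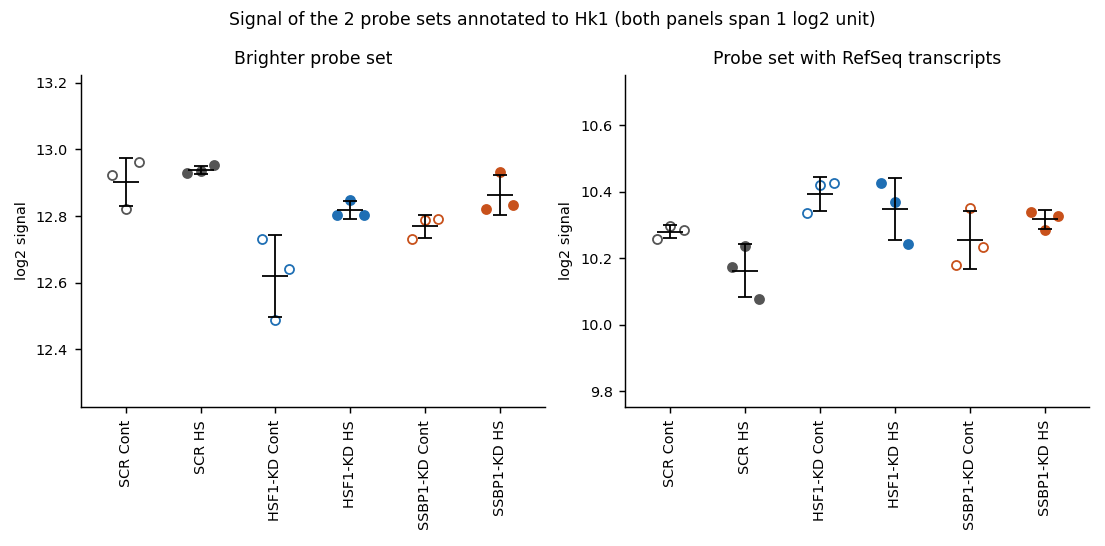
Log2 signal (y axis, 1 unit in both panels) of the 2 probe sets annotated to Hk1 on the 3 arrays of each group (x axis), with open points for Cont, filled points for HS, and a bar for the mean and SD. The brighter set is lowest in HSF1-KD Cont (12.49 to 12.73), where the set with RefSeq transcripts is at 10.34 to 10.43, above both SCR groups.

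Among themselves the members fell into no single pattern. Over the 18 arrays, which share their groups, Slc25a4 and Slc25a5 had r = 0.88, Vdac2 and Vdac3 0.82, Slc25a5 and Hk2 0.77, Slc25a5 and Tspo -0.84, and Vdac1 and Ppif -0.66. Against the median range of group means over all symbols, 0.28, the members had 0.71 (Hk2), 0.49 (Tspo), 0.37 (Slc25a5), 0.36 (Ppif), 0.32 (Hk1, brighter set), 0.28 (Vdac1), 0.23 (Vdac2), 0.22 (Vdac3), 0.16 (Slc25a4) and 0.094 (Slc25a3). Among 9969 symbols above the median signal, those most like a member over the 18 arrays were Ppa1, Pno1 and Nme1 for Slc25a5 (r = 0.98, 0.98 and 0.97), Ncl, Pwp1 and Chchd3 for Slc25a4 (0.95, 0.94 and 0.94), Sgms1, N4bp2 and Rarg for Vdac1 (0.96, 0.95 and 0.95), Xylb, Pfkfb4 and Dhx30 for Ppif (0.97, 0.94 and 0.94), and Slc20a2, Psmc1 and Tlcd3a for Hk2 (0.95, 0.94 and 0.93). These correlations describe the arrays and share the same 6 groups.

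Glycolysis genes other than the hexokinases were mostly lower or not called in SSBP1 knockdown cells. Of 16 measured, 1 was higher and 8 lower than SCR in Cont (median -0.16), beside 14.6% and 16.5% of all symbols, among them Eno2, an enolase (-0.67, adjusted p = 5.55e-06), Pfkl, a phosphofructokinase (-0.55), and the glucose transporters Slc2a1 and Slc2a3 (both -0.50), while Hk2 was 0.26 higher. In HS 4 were higher and 6 lower (14.3% and 14.4% of all symbols). HSF1 knockdown gave 0 higher and 2 lower in Cont (10.9% and 10.1%) and 5 higher and 0 lower in HS (13.1% and 10.7%), with Pgam1 (0.30) and Pfkp (0.27) leading. With heat in SCR 3 were higher and 5 lower (7.63% and 8.34% of all symbols), where Eno2 (-0.45) and Slc2a1 (-0.42) fell as Hk2 did, and Aldoc, an aldolase, rose by 0.25.

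ATP synthase, which uses the ADP and phosphate that ANT and the phosphate carrier import, was measured through 15 subunit genes. With heat 0 rose and 1 fell in SCR, where 16.0% of all symbols were called, and limma called 0 in HSF1-KD and SSBP1-KD (21.4% and 6.90% of all symbols). SSBP1 knockdown gave 0 higher and 1 lower in Cont and 3 higher and 1 lower in HS, beside 31.1% and 28.7% of all symbols called, and HSF1 knockdown 1 higher and 1 lower, then 3 higher and 1 lower, beside 21.0% and 23.7%. Atp5g2, a subunit of the rotor ring, was lower than SCR in all 4 comparisons (-0.31 and -0.26 in HSF1-KD, -0.23 and -0.17 in SSBP1-KD, in Cont and HS), and Atp5l higher in HS (0.32 and 0.36). Of 10 genes of mitochondrial calcium entry and release, whose load opens the pore, 3 fell with heat in SCR and 3 in HSF1-KD, the same in both: Slc8b1, the sodium/calcium exchanger (-0.24 and -0.35), Itpr3, an endoplasmic reticulum release channel (-0.22 and -0.31), and Letm1 (-0.22 and -0.20), where 8.34% and 10.8% of all symbols fell. In SSBP1-KD none of the 10 fell and 1 rose with heat, Mcur1 (0.26, adjusted p = 0.0436), where 4.08% of all symbols rose. Slc8b1 was higher than SCR in both knockdowns, by 0.48 in HSF1-KD Cont and 0.21 in SSBP1-KD Cont. Hspa9, the mitochondrial HSP70 that links VDAC1 to calcium channels, was 0.28 higher in SSBP1-KD Cont (adjusted p = 0.000141) and 0.21 higher in HS, and 0.17 lower in HSF1-KD HS (log2 difference -0.17, adjusted p = 0.00879).

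The BCL2 family governs the permeability of the outer membrane. Of 16 measured, 3 rose and 1 fell with heat in SCR (7.63% and 8.34% of all symbols), led by Mcl1, an anti-apoptotic member (0.55, adjusted p = 2.71e-06), and Bcl2l11, which encodes the death activator BIM (0.36). Mcl1 rose by 0.16 with heat in SSBP1-KD, less than in SCR, with the difference in heat response itself called at -0.39 (SE 0.07, adjusted p = 0.0214). SSBP1 knockdown in Cont gave 6 higher and 3 lower (14.6% and 16.5% of all symbols), with Bnip3, a mitophagy receptor, at -0.99 (adjusted p = 7.64e-06), Bid at 0.40 and Bmf at -0.38. In HS it gave 4 higher and 4 lower (14.3% and 14.4%). The differences of the family there ran from -0.67 to 0.55, with Bak1, whose product forms outer membrane pores, at 0.47. HSF1 knockdown in Cont gave 1 higher, Bcl2l1 (0.33), which encodes the protective BCL-XL, and 2 lower (10.9% and 10.1% of all symbols), with Bnip3 at -0.81, and in HS 2 higher and 1 lower (13.1% and 10.7%).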

How the data were processed

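Affymetrix Mouse Gene ST arrays measured RNA of 18 samples, 3 per group. The authors deposited 1 table of log2 signals for 35557 probe sets; the submitters' processing notes name RMA and Partek 6.5, and neither background correction nor normalization was repeated. Every column matched a sample. Arrays have no read depth, and their number, 3 per group, is 1 of the limits on the precision. A platform annotation gave 1 symbol to 21789 probe sets, several to 1621 and none to 12147; 21698 of the first matched RefSeq genes of GRCm38.p6. Each symbol was read from its brightest set, as 999 of 19938 symbols had several. Log2 signals were fitted with limma 3.58.1 (lmFit, eBayes) in R 4.3.3, with 1 mean per group, 12 residual and 2.36 prior degrees of freedom, and 11 contrasts; Benjamini-Hochberg adjustment ran over the whole table. Simulated data with known differences were used to test the scripts. Percentages of symbols called use the same threshold.

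Members, neighbouring gene lists and the rule for named genes (all members, the knockdown targets and 3 chaperones, up to 4 called genes with the largest difference per list and comparison, and the 3 symbols most like each of 5 members) were chosen with earlier results of these data known. The list matched current to older symbols through RefSeq synonyms. Alternatives were equal array medians, quantile normalization, brighter probe sets, probe sets with 1 symbol, the compared arrays alone, a replicate block, a trended robust prior, array weights, the methods' t-test, the least bright probe set of a member, and each array left out in turn. Reading Hk1 from the set with its RefSeq transcripts was added after the data were seen. Promoter windows were searched and figures drawn with Python 3.11.15, pandas 2.3.3 and matplotlib 3.10.9.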

Additional observations from a re-analysis of the deposited data

How the results depend on the processing

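Of 1825 values of single members over all alternatives, 1602 kept their direction and their side of the threshold, 93 lost a call, 45 gained one, 6 changed the sign of a called value or became called with the opposite sign, and 79 changed sign without a call on either side (at most 0.15 in the reported fit). The sign changes that involved a call were all of Hk1, with the least bright probe set of each member and, the same set, with its RefSeq transcripts: heat in HSF1-KD became -0.047, and HSF1-KD against SCR became 0.11 in Cont and 0.18 in HS. Counts of called members changed as follows. For heat in SCR the 1 call became 0 with the methods' t-test. Heat in HSF1-KD went from 1 to 0 with the compared arrays only, the methods' t-test, the least bright probe set or the RefSeq set of Hk1, and to between 0 and 1 with an array left out. HSF1-KD against SCR in Cont went from 3 to 5 with brighter probe sets only and to 2 with equal array medians, the compared arrays only, the methods' t-test or either Hk1 substitution, and lay between 2 and 4 with an array left out. SSBP1-KD against SCR in Cont went from 4 to 2 with equal array medians and to 1 with the compared arrays only, but to 6 with quantile normalization or brighter probe sets, and lay between 2 and 3 with an array left out. HSF1-KD against SCR in HS went from 5 to 3 with the compared arrays only and to 3 with the methods' t-test, and to between 3 and 4 with an array left out. SSBP1-KD against SCR in HS went from 4 to 1 with the methods' t-test, but to 6 with quantile normalization, brighter probe sets, probe sets of 1 symbol, the trended prior or array weights, and lay between 3 and 5 with an array left out. SSBP1-KD against HSF1-KD in Cont went from 5 to 1 with the compared arrays only and to 0 with the methods' t-test, and lay between 3 and 7 with an array left out, while in HS it went from 3 to 1 with the compared arrays only and to 5 with array weights, and lay between 0 and 2. For the heat response of SSBP1-KD minus that of SCR, the count went from 0 to 1 with array weights. The cause of these changes was not tested. The fit of the compared arrays and the t-test have fewer degrees of freedom and estimate the spread from those arrays alone. The labels do not say whether arrays of the same replicate number shared a source, and the numbers were not treated as pairs: in 6 of 45 same-numbered pairs the deviations from group means correlated above 0.1 (range -0.276 to 0.171), and for 6 of 18 arrays the best match carried the same number. With a replicate block the counts were 1, 1 and 0 for heat, 4 and 4 for HSF1-KD against SCR, 4 and 4 for SSBP1-KD against SCR, and 5 and 2 for SSBP1-KD against HSF1-KD, in Cont and HS, and the calls of Tspo in HSF1-KD against SCR in HS (adjusted p = 0.0507) and of Vdac3 in SSBP1-KD against HSF1-KD in HS (adjusted p = 0.0505) were lost. Probe sets carry no measure of signal over background in this table, and near-identical copies limit Vdac3 and Slc25a5.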

Other observations

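Of 33 other carrier genes of the inner membrane measured, 10 were higher and 8 lower in SSBP1-KD than in SCR in Cont, beside 14.6% and 16.5% of all symbols, and 8 higher and 7 lower in HSF1-KD, beside 10.9% and 10.1%. Slc25a24, an ATP-magnesium/phosphate carrier, differed in opposite directions, at -0.77 in HSF1-KD (adjusted p = 7.89e-07) and 0.52 in SSBP1-KD (adjusted p = 1.34e-05), and by 1.28 between the knockdowns in Cont (SE 0.06, adjusted p = 4.93e-09) and 1.30 in HS. Slc25a37, the iron importer mitoferrin-1, was 0.47 higher in SSBP1-KD Cont, and Slc25a31, the testis form of ANT, was 0.50 higher after heat in HSF1-KD (adjusted p = 0.00505).

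Among 13 measured genes of protein import and sorting in the outer membrane, Mtx3, a metaxin, fell with heat in all 3 kinds of cell, by 0.49, 0.39 and 0.44 on the log2 scale in SCR, HSF1-KD and SSBP1-KD. SSBP1-KD exceeded SCR in 4 of them in Cont and 5 in HS, with none lower, where 14.6% and 14.3% of all symbols were higher and 16.5% and 14.4% lower, led by Tomm5, a subunit of the import pore (0.34 and 0.43). Cyclophilin genes other than Ppif, 13 measured, were higher in SSBP1-KD for 3 in Cont and 6 in HS, with 0 lower in both, beside the same shares of all symbols, which the 3 in Cont are near. Among them Ppid was higher by 0.25 at both temperatures (adjusted p = 0.0217 and 0.0224).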
